A study of Homo sapiens with 4 samples.

Results

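Cultures of 1 prostate cancer line, LTAD, were compared after transfection with a control siRNA and without transfection, by 1 array on each side. These were 2 of the 4 arrays of the series, chosen by their labels, and every gene measured on them entered the comparison. The series was made to see what an siRNA against PSF, the product of SFPQ, does to gene expression in a castration-resistant model. LNCaP is a human prostate cancer line that responds to androgen, and LTAD was derived from it by long-term androgen deprivation. The siControl LTAD array held LTAD cells transfected with the siRNA that the labels call siControl, the siPSF array held LTAD cells transfected with siPSF, and the untransfected LTAD array held cells that were only cultured. All 3 LTAD arrays came from cells in culture medium without phenol red and with 10% charcoal/dextran-treated serum, which holds little steroid hormone. The LNCaP array came from cells kept for 24 h in the same kind of medium with 2.5% treated serum. LTAD is 1 subline with no passage number, transfection reagent, siRNA sequence or time of harvest given in the sources used here. No group had a replicate, so each difference below lies between single arrays, has no error and no test, and its precision is limited by the number of arrays. Transfection, culture and array batch cannot be told apart.

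A cell line that divides quickly holds more RNA for the proteins that copy and separate its chromosomes than the same line at rest, and most of these genes are read from promoters that are shut outside the division cycle. In prostate cells androgens drive a set of secreted and metabolic genes, among them the kallikreins that are measured as tumour markers. The ID genes are direct targets of bone morphogenetic proteins (BMPs), which signal through SMAD proteins, and the encoded ID proteins block transcription factors that promote differentiation.

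The deposited columns were not on one scale, with a median log2 level over all 33297 probe sets of 5.98 in siControl LTAD, 6.04 in siPSF LTAD, 7.20 in untransfected LTAD and 6.91 in LNCaP. All 4 columns were therefore quantile-normalized, which gives each array the same distribution. The median difference over all genes, siControl minus untransfected LTAD, was -1.02 on the deposited scale and 0.07 after quantile normalization, so each difference is relative to that common shift. Levels below are quantile-normalized log2 values, and a difference is the siControl level minus the untransfected LTAD level on that scale. A gene was kept if its level reached 7.23, the median of all gene levels, in at least 1 of these 2 arrays, and 9845 of 18417 genes were. With no detection calls, a level under 7.23 is called a reading not shown to be above background. Against such a reading only the difference is given. The same cutoff of 2-fold separated 74 kept genes between siControl and siPSF LTAD, 555 between untransfected LTAD and LNCaP, 542 between siControl LTAD and LNCaP and 1060 between siControl and untransfected LTAD.

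Of the 1060 genes at least 2-fold apart between the LTAD cultures, 627 were higher and 433 lower in siControl, which is 6.37% and 4.4% of the kept genes. The higher side held 59.2% of them. That split moved with the scale: without normalization 69 were higher and 3858 lower (1.76% higher), and with each column centred on its median 1223 were higher and 285 lower (81.1% higher). The largest differences were on the lower side. At least 4-fold apart were 66 genes higher and 116 lower, and at least 16-fold 2 higher and 20 lower. In 262 of the 627 and 190 of the 433 the dimmer array gave a reading not shown to be above background.

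**Figure D1:**
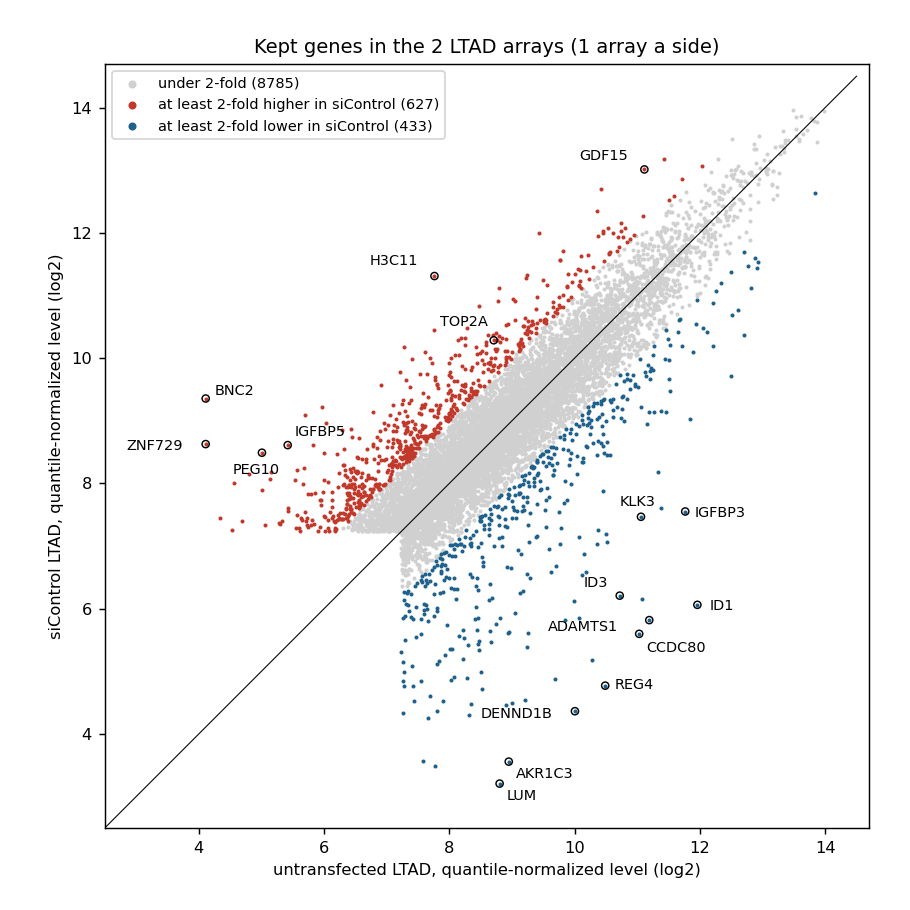
Level of each kept gene in untransfected LTAD (horizontal, log2) and siControl LTAD (vertical, log2), 1 point a gene, 1 array a side. Red points are the 627 genes at least 2-fold higher in siControl and blue points the 433 lower. The line marks equal levels, and the blue points reach farther from it than the red.

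ID1, an inhibitor of differentiation, stood lowest of all kept genes, at 6.06 in siControl, 5.89 in siPSF, 11.96 in untransfected LTAD and 10.24 in LNCaP, a difference of -5.90. Both transfected arrays were low and both untransfected arrays high. Each set of 4 levels below is in this order of arrays, and a bare value in brackets is the difference. REG4, a secreted lectin of the intestinal epithelium, read 4.77, 4.66, 10.49 and 6.44 (-5.72). Here untransfected LTAD alone was high. DENND1B, an exchange factor for Rab35, read 4.37, 4.45, 10.01 and 8.69 (-5.64). Its second probe set differed by -5.83. The axon guidance receptor ROBO2 (-5.10), the brain membrane protein PLPPR1 (-4.93), the secreted disulfide isomerase AGR2 (-4.81), the transcription factor MEF2C (-4.43), the chaperone clusterin, CLU (-4.22), and the serotonin receptor HTR7 (-4.03) were also among the 20 lowest. ROBO2, PLPPR1 and HTR7 were high in untransfected LTAD only, at 10.28, 11.08 and 9.85, against 4.96 to 6.16 in the other arrays.

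BNC2, a zinc finger protein, stood highest, at 9.36, 8.14, 4.11 and 4.28, a difference of 5.24. Both transfected arrays were high and both untransfected arrays gave readings not shown to be above background. H3C11, a replication-dependent histone H3 gene, read 11.31, 10.72, 7.76 and 10.32 and was 11.7-fold higher in siControl than in untransfected LTAD. For this gene LNCaP lay with the transfected arrays. FSD1, a microtubule-associated protein, differed by 3.39, S100A14, a calcium-binding protein, by 2.94, SLC1A3, a glutamate transporter, by 2.88 and GLDC, the glycine decarboxylase, by 2.66. HAUS1, a subunit of the augmin complex of the spindle, was 6.47-fold higher, at 10.45 against 7.76. The dimmer of the LTAD arrays was under 7.23 for 17 of the 20 highest and 19 of the 20 lowest. In 14 and 16 it was also under the 95th percentile of 359 olfactory receptor genes, which such cells are not known to use, and that mark lay between 5.73 and 5.94 in the 4 arrays. The siPSF level lay within 1 of the siControl level in 18 and 20 of them.

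Genes were then read by function, over 33 lists. Counts of members at least 2-fold apart are set against 6.37% higher and 4.4% lower among all kept genes, and list medians, taken over every measured member with no filter, against 0.07 over all genes. Genes of mitosis, DNA replication and the stress response lay on the higher side, and androgen-induced genes and the ID and SMAD feedback genes on the lower side. Many members of the growth factor, collagen, adhesion and cell identity lists were under the filter, so medians over every measured member rest in part on readings not shown to be above background. Over the members whose mean of 4 arrays reached the filter the median was -0.64 for 6 genes of the EGF family, -0.35 for 6 of the IGF axis, -0.41 for 21 of WNT and Notch signalling and -0.57 for 12 luminal markers, against 0.06 over all genes. Over every measured member these lists were at -0.14, 0.03, -0.27 and -0.50.

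**Figure D2:**
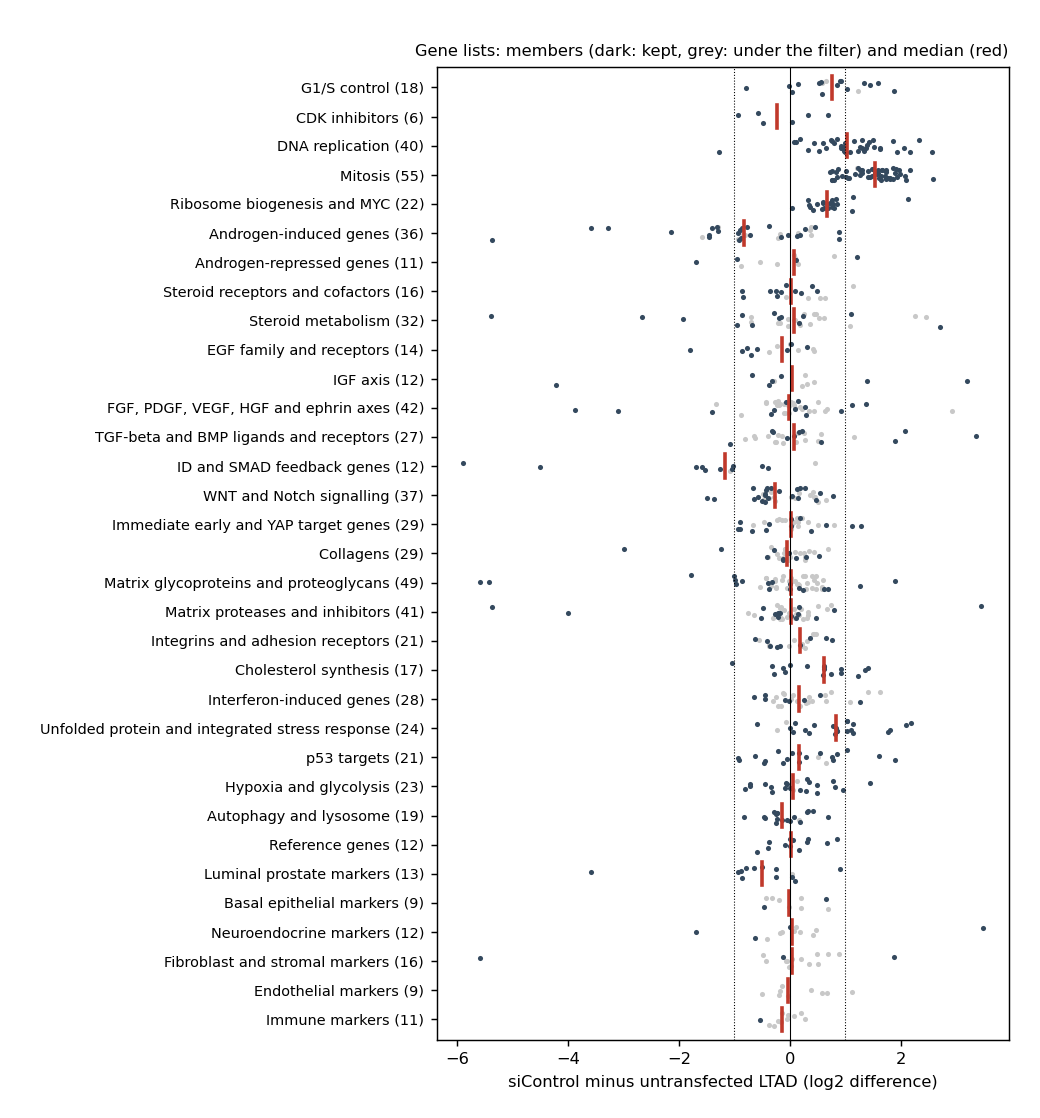
Difference of each measured member of 33 gene lists (horizontal, log2, siControl minus untransfected LTAD), 1 point a gene, with the number measured in brackets. Dark points are kept genes, grey points are under the filter, red bars are list medians and dotted lines mark 2-fold. The mitosis list lies wholly above 0 and the ID and SMAD list has 11 of 12 members below it.

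All 55 measured genes of mitosis were higher in siControl than in untransfected LTAD, by 0.73 to 2.58, with a median of 1.53. Of the 54 that were kept, 45 were at least 2-fold higher and 0 lower. TOP2A, the topoisomerase that untangles replicated DNA, read 10.29 in siControl, 10.06 in siPSF, 8.71 in untransfected LTAD and 10.22 in LNCaP, and was 2.98-fold higher in siControl than in untransfected LTAD. Only untransfected LTAD was low, and the other 3 arrays lay close together. In bulk RNA, more cells in division and more RNA per dividing cell cannot be told apart. CCNB2, a cyclin of mitotic entry, had the same pattern at 10.09, 10.04, 8.49 and 10.04 (3.02-fold). These 2 genes are shown by the 250 bases before their RefSeq start because each holds both a TTTGAA and a CCAAT, the letters of the cell cycle homology element and of the site of the factor NF-Y, which mark many mitotic promoters. TOP2A lies on the minus strand at chr17:40417897-40418146 and CCNB2 on the plus strand at chr15:59104896-59105145 (GRCh38.p14, RefSeq). Capitals mark TTTGAA and CCAAT on either strand, so that TTCAAA and ATTGG are the same motifs read from the other strand.
TOP2A: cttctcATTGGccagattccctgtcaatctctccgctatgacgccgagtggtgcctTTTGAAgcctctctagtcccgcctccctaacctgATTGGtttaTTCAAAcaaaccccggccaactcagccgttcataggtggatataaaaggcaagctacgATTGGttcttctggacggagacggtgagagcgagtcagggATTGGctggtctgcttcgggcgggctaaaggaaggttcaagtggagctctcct
CCNB2: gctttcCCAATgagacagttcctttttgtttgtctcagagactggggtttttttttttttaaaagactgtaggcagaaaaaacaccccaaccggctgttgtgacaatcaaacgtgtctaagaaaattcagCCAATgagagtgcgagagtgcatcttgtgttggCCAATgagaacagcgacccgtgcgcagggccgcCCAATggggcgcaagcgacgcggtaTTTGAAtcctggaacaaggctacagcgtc
In the RefSeq windows of 300 bases, 250 before and 50 after a start, TTTGAA on either strand was found in 34 of 49 mitosis genes that had one (69.4%), against 18.2% of 27305 genes. CCAAT was found in 37 of the 49 (75.5%), against 39.7%. TTCGAA, a variant of the first motif, was in 3 of the 49, against 1.82%. These matches describe letters in a window and show neither binding nor a cause.

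The other mitotic genes are ordered here by what they do. Among kinases of division, PLK1 read 11.24, 11.07, 9.50 and 10.61 (3.34-fold higher), and BUB1 of the spindle checkpoint 9.45, 8.99, 7.58 and 9.09 (3.65-fold). AURKB of the chromosomal passenger complex was 3.32-fold higher, and PBK, a mitotic kinase, was the highest of the list at 9.99, 9.50, 7.41 and 9.10 (2.58). In each of these untransfected LTAD was the lowest array. FOXM1, the transcription factor that drives many of them, was 3.89-fold higher. The condensin subunits SMC4 and NCAPH, which compact chromosomes, were 4.21-fold and 4.30-fold higher. MKI67, the antigen counted by pathologists as a sign of cycling cells, read 9.17, 8.78, 7.72 and 9.09 and was 2.74-fold higher. HMMR and SPC25 differed by 2.17 and 1.99, from readings in untransfected LTAD not shown to be above background. The smallest differences were those of MAD2L1 of the spindle checkpoint (0.73) and of KIF23 and CCNA2, a kinesin of cytokinesis and a cyclin (both 0.77).

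DNA replication genes had a median of 1.04 over 40 measured members, all of them kept, with 20 at least 2-fold higher and 1 lower. CDC6, which loads the replicative helicase, read 9.79 in siControl, 9.19 in siPSF, 7.22 in untransfected LTAD and 9.17 in LNCaP, a difference of 2.56 against a reading just under the filter level. CDC45, a part of the active helicase, was 4.19-fold higher, and MCM10, which helps to start it, 4.49-fold higher. The 6 MCM helicase subunits had a median of 0.92, and MCM7 was the only one past 2-fold, at 10.60 against 9.52 (2.12-fold). Of the 4 GINS subunits 3 were past it, with GINS1 at 10.91, 10.46, 9.05 and 10.73 (3.61-fold). PCNA, the sliding clamp, was 2.52-fold higher and TK1, which makes thymidine phosphate, 3.09-fold. The clamp loader was split. RFC4 was 5.02-fold higher, at 11.12, 10.85, 8.79 and 9.59, and RFC3 2.82-fold higher. RFC2 was 2.43-fold lower, at 9.90, 9.71, 11.18 and 10.61, and the only replication gene below 0.

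Genes that carry the cell from G1 to S phase had a median of 0.75 over 18 measured members, and of 15 kept 5 were at least 2-fold higher and 0 lower. SKP2, which marks the inhibitor p27 for destruction, read 11.34, 11.02, 9.90 and 10.67 (2.71-fold higher). CDC25A, a phosphatase that activates CDK2, differed by 1.59, and the repressors E2F8 and E2F7 by 1.88 and 1.33, all 3 from readings in untransfected LTAD under 7.23. RBL1, the pocket protein p107, was 2.04-fold higher, while RBL2, the pocket protein p130 of resting cells, was lower by less than 2-fold, at 9.26 against 10.05. CCND1, cyclin D1, differed by -0.02. DTL, which directs the destruction of the licensing factor CDT1, and CDC25A are shown by their promoters because both hold TTTGGCGC, a form of the E2F site. DTL lies on the plus strand at chr1:212035498-212035747 and was 2.36-fold higher, at 9.78 against 8.54. CDC25A lies on the minus strand at chr3:48188418-48188667, also in GRCh38.p14. Capitals mark TTTGGCGC and CCAAT on either strand.
DTL: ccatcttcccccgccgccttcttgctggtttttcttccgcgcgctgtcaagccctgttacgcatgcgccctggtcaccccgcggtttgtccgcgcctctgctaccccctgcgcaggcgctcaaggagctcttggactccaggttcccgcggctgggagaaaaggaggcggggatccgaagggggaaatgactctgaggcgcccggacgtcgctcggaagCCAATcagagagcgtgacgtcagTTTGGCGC
CDC25A: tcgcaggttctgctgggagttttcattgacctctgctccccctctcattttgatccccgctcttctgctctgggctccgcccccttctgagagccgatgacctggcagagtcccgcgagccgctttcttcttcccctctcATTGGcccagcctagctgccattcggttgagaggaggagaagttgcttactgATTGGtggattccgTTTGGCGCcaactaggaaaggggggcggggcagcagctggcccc
TTTGGCGC was in 8 of 36 replication genes with a window (22.2%) and in 4 of 13 G1 to S genes, against 0.795% of all 27305. The related TTTCGCGC was in 6 of the 36, against 0.630%. TTTGAA was in 1 of the 36.

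Inhibitors of cyclin-dependent kinases had no member past 2-fold in either direction. Their median over 6 measured genes was -0.22. Relative to all genes it was -0.29, but 0.29 over the members that passed a stricter filter. CDKN1A, p21, read 8.72 in siControl, 9.55 in siPSF, 9.66 in untransfected LTAD and 8.81 in LNCaP. CDKN1B, p27, differed by 0.33. MYC read 11.68, 11.39, 10.55 and 10.99 and was 2.19-fold higher in siControl than in untransfected LTAD. With its ribosome biogenesis targets it formed a list whose 22 measured members were all above 0, with a median of 0.68 and 3 past 2-fold. RRS1, which assembles the large ribosomal subunit, was 4.39-fold higher and TCOF1, which supports ribosomal RNA synthesis, 2.20-fold. Relative to all genes this list's median was 0.38 with siPSF in place of siControl, against 0.61. The ribosomal protein genes themselves had a median of 0.00 over 66.

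**Figure D3:**
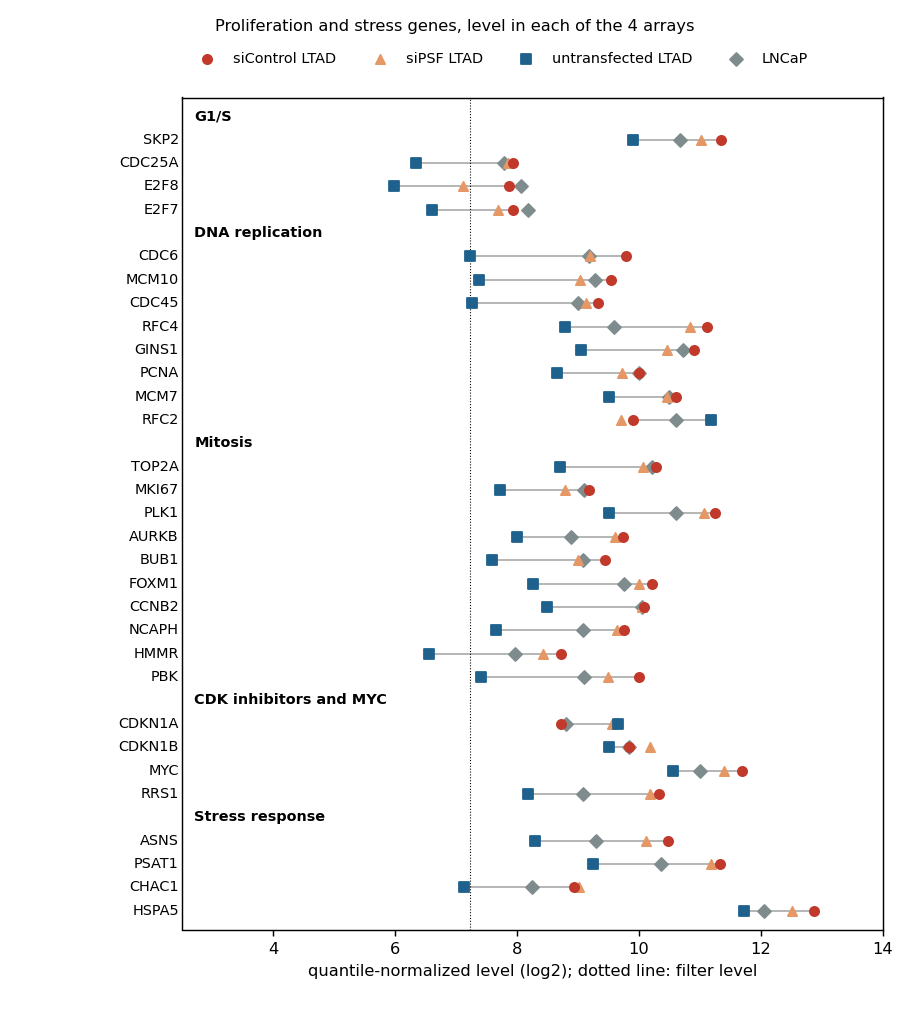
Level of proliferation and stress genes in each of the 4 arrays (horizontal, log2), 1 marker an array, with a grey line joining siControl (circle) and untransfected LTAD (square). The dotted line is the filter level of 7.23. Untransfected LTAD is the lowest array for each gene drawn except RFC2 and CDKN1A.

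Genes of the unfolded protein and integrated stress responses had a median of 0.84 over 24 measured members, and of 22 kept 10 were at least 2-fold higher and 0 lower. The list held genes induced by ATF4 when amino acids are short and chaperones of the endoplasmic reticulum, 10 of each, and 5 of each were past 2-fold. ASNS, asparagine synthetase, read 10.48 in siControl, 10.11 in siPSF, 8.29 in untransfected LTAD and 9.29 in LNCaP (4.55-fold higher). PSAT1 of serine synthesis read 11.33, 11.18, 9.24 and 10.35 (4.27-fold). Both were highest in the transfected arrays, and LNCaP lay between. CHAC1, which degrades glutathione, differed by 1.81 and DDIT4, an inhibitor of mTORC1, was 3.40-fold higher. ATF4 itself differed by 0.34 and DDIT3, also called CHOP, by 0.28, while ATF3 stayed under the filter. Among chaperones, HSPA5, called BiP, read 12.86, 12.52, 11.72 and 12.06 (2.21-fold) and HSP90B1 13.06, 12.76, 12.03 and 12.55 (2.05-fold). PDIA6, a disulfide isomerase, was 2.16-fold higher. CRELD2, XBP1 and DNAJC3 were not past 2-fold, at 0.09, 0.44 and 0.01, and DNAJB9 was at -0.59. HSPA5 and HSP90B1 are shown by their promoters because both hold CCAAT and, after 9 bases, CCACG, the endoplasmic reticulum stress element read by ATF6 with NF-Y. HSPA5 lies on the minus strand at chr9:125241344-125241593 and HSP90B1 on the plus strand at chr12:103930160-103930409 (GRCh38.p14). Capitals mark both ends of the element, as CCAAT and CCACG or, from the other strand, as CGTGG and ATTGG.
HSPA5: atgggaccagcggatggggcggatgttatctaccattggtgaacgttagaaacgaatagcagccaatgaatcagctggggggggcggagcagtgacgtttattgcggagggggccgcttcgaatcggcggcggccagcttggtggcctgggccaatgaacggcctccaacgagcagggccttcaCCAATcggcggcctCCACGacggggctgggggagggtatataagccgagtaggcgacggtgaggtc
HSP90B1: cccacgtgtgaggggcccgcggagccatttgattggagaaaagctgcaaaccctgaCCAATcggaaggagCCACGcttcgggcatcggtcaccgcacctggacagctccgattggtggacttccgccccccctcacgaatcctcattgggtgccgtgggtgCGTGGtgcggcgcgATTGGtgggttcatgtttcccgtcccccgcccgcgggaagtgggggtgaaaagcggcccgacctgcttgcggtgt
The element was in 6 of 23 stress genes with a window, CALR, CRELD2, HSP90B1, HSPA5, PDIA6 and XBP1, against 25 of 27305 genes (0.0916%). Of these 6, HSPA5, HSP90B1 and PDIA6 were past 2-fold, CALR differed by 0.85, and CRELD2 and XBP1 differed least. CCAAT by itself was in 18 of the 23.

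Androgen-induced genes had a median of -0.83 over 36 measured members, with 26 below 0. Of 25 kept, 9 were at least 2-fold lower and 0 higher. KLK3, prostate-specific antigen, read 7.47 in siControl, 7.11 in siPSF, 11.06 in untransfected LTAD and 12.89 in LNCaP, and was 12.1-fold lower in siControl than in untransfected LTAD. Its level was highest in LNCaP, next in untransfected LTAD and lowest in the transfected cultures. ADAMTS1, a protease that cleaves proteoglycans, read 5.82, 6.44, 11.19 and 11.34 (-5.37), and AZGP1, a secreted zinc-binding glycoprotein, 6.87, 6.85, 10.15 and 9.97 (-3.28). In both the untransfected arrays were high and the transfected arrays gave readings not shown to be above background. HERC3, a ubiquitin ligase, was 4.39-fold lower, and EAF2 and ELL2, partners in transcription elongation, differed by -1.46 and -1.45. PLPP1, a lipid phosphatase, was 2.47-fold lower. KLK2, the neighbouring kallikrein, was lower by less than 2-fold, at 8.45, 8.11, 9.35 and 9.31, as was ACP3, prostatic acid phosphatase, at 9.42, 9.33, 10.31 and 9.72. STEAP1, CAMKK2 and TSC22D3 lay near equal levels, at 0.13, -0.15 and -0.04. CENPN and NCAPD3, which are also genes of division, were higher by 0.89 and 0.46.

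Of 11 measured androgen-repressed genes 4 were kept, LIFR, a cytokine receptor, was 2.31-fold higher and DDC, which makes dopamine, differed by -1.69. None of 16 measured steroid receptors and cofactors was past 2-fold among the 11 kept, and their median was 0.02. FOXA1, a pioneer factor that opens chromatin in prostate cells, read 11.57 in siControl and 11.83 in untransfected LTAD. HOXB13, a homeobox factor of the prostate, read 10.93 and 10.83. The coactivator NCOA2 and GATA2 were nearest to the cutoff, at -0.86 and -0.84.

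Enzymes of steroid metabolism differed one by one, with a list median of 0.08 over 32 measured members and 13 kept. AKR1C3, which makes testosterone from androstenedione, read 3.56 in siControl, 4.06 in siPSF, 8.95 in untransfected LTAD and 5.64 in LNCaP, a difference of -5.39. Untransfected LTAD was the only array with a reading over the filter level. AKR1C1 and AKR1C2, which inactivate progesterone and dihydrotestosterone, read 5.26 against 7.93 and 5.54 against 7.47, and in LNCaP 9.30 and 10.61. The order of LNCaP and untransfected LTAD was thus opposite between AKR1C3 and its neighbours. These 3 genes lie side by side on chromosome 10 and are close copies whose probes can share targets. The second probe set of AKR1C1 differed by only -0.73, so the split between the 3 genes is uncertain. On the higher side, HSD17B6, which turns androstanediol back to active androgen, read 7.40, 7.12, 4.69 and 6.60 (2.71) and HSD17B11 was 2.16-fold higher. UGT2B10 and UGT2B28, which conjugate steroids, were under the filter in both LTAD arrays.

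The ID and SMAD feedback list held genes tied to BMP and TGF-beta signalling, together with HES1 and HEY1, which are not specific to it. Its median was -1.16 over 12 measured members, with 11 below 0. Of 10 kept, 8 were at least 2-fold lower and 0 higher. ID3 read 6.21 in siControl, 6.10 in siPSF, 10.72 in untransfected LTAD and 9.85 in LNCaP (-4.51), and like ID1 it was high in both untransfected arrays. ID2 read 9.05, 9.90, 10.73 and 9.19 (3.22-fold lower), so that LNCaP lay near siControl. ID4 stayed under the filter. The inhibitory SMAD6 was 2.07-fold lower, at 7.48, 7.58, 8.53 and 8.22, SMAD7 differed by -1.02 and SMAD9 was 2.87-fold lower. HES1, a repressor downstream of Notch, was 2.99-fold lower and its relative HEY1 differed by -1.25. Relative to all genes the list median was -1.23, and from -1.68 to -1.01 under the filters and with siPSF in place of siControl.

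The ligands and receptors of BMP and TGF-beta signalling had a median of 0.08 over 27 measured members. Among them BMP7 was higher in siControl, at 8.15, 7.88, 4.80 and 4.87 (3.35), and CHRDL1, a secreted antagonist of BMPs, at 7.36, 7.32, 5.29 and 5.05 (2.08). Both untransfected arrays were under the filter for both genes. GDF15, a stress-induced member of the family, read 13.01, 13.29, 11.11 and 12.40 (3.73-fold higher). BAMBI, a receptor without a kinase domain, was 2.10-fold lower, at 8.59, 9.36, 9.65 and 11.05. BMPR2, a receptor of BMPs, differed by -0.33 and TGFBR1 by 0.57.

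In the insulin-like growth factor (IGF) axis only binding proteins were past 2-fold, and they went both ways. IGFBP3, which carries IGF in blood, read 7.55 in siControl, 7.73 in siPSF, 11.77 in untransfected LTAD and 10.55 in LNCaP, and was 18.5-fold lower in siControl than in untransfected LTAD. IGFBP5 read 8.61, 9.47, 5.42 and 4.60 (3.19) and IGFBP2 12.00, 12.12, 10.61 and 10.18 (2.62-fold higher). For these 2 both transfected arrays were high. The receptor genes INSR and IGF2R differed by -0.38 and -0.69, and the list median over 12 measured members was 0.03.

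The EGF family had 1 of 8 kept members past 2-fold, NRG3, a neuregulin, at 6.32, 5.80, 8.12 and 5.42 (-1.80), where untransfected LTAD alone was over the filter level. The receptors EGFR, ERBB2 and ERBB3 differed by -0.69, -0.87 and -0.58. In the list of FGF, PDGF, VEGF, HGF and ephrin axes (42 measured, 13 kept, median -0.02), the ephrin receptors EPHA3 and EPHA7 stood out on the lower side. EPHA3 read 7.26, 6.45, 10.37 and 9.10 (8.62-fold lower) and EPHA7 4.48, 4.59, 8.35 and 6.73 (-3.87). EFNA1, an ephrin ligand, was 2.65-fold lower. FGFR2 and SPRED1, a receptor and an inhibitor of its signal to RAS, differed by 1.37 and 1.12. VEGFA differed by -0.33 and FGFR1 by 0.16. WNT and Notch genes (37 measured, 22 kept, median -0.27) had 2 members past 2-fold, LEF1, the nuclear partner of beta-catenin, 2.81-fold lower, and JAG1, a Notch ligand, 2.58-fold lower. The immediate early and YAP target genes had MYC and AJUBA, a LIM protein of the Hippo pathway, past 2-fold on the higher side, with a median of 0.03 over 29. EGR1 differed by 0.38 and JUN by -0.37, and JUN was higher in siPSF, at 10.08 against 8.91 in siControl.

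**Figure D4:**
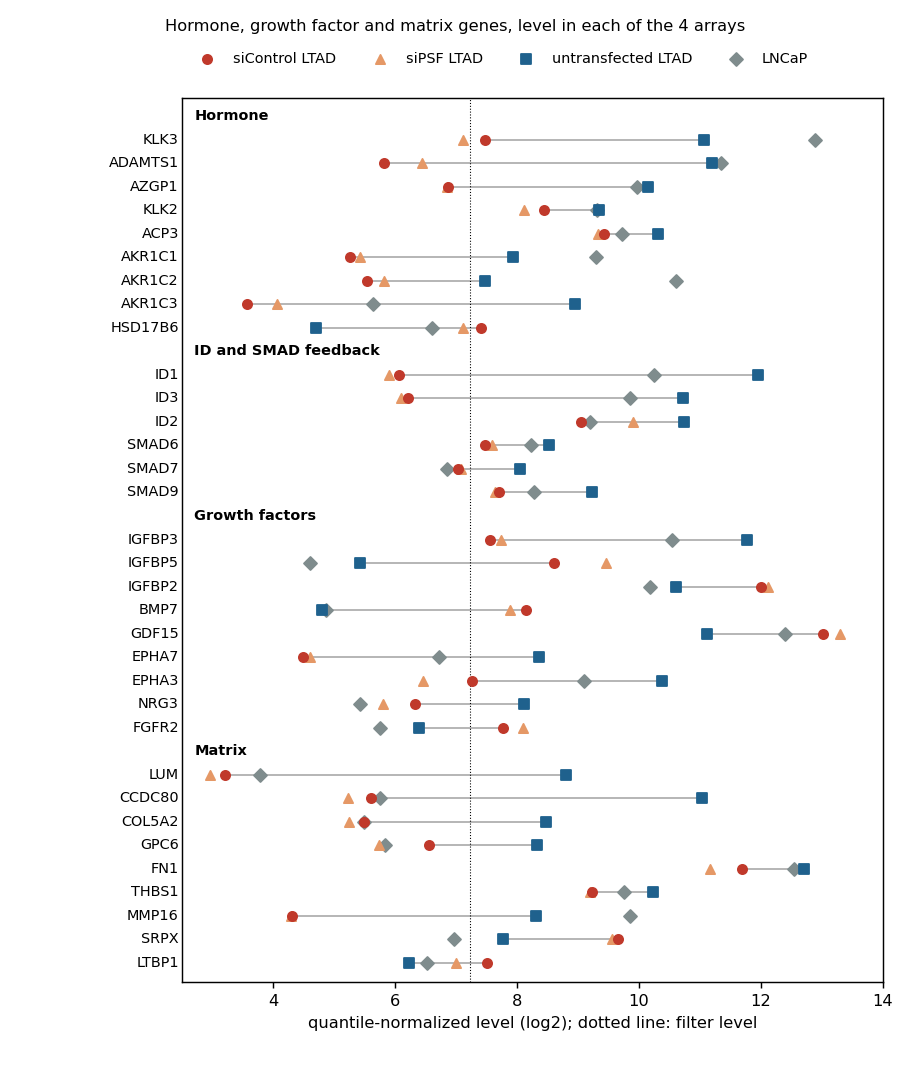
Level of hormone, ID and SMAD, growth factor and matrix genes in each of the 4 arrays (horizontal, log2), 1 marker an array, with a grey line joining siControl (circle) and untransfected LTAD (square). The dotted line is the filter level of 7.23, and most genes low in siControl lie left of it there.

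Among matrix genes, the members furthest apart were lower in siControl. LUM, the collagen-binding proteoglycan lumican, read 3.21 in siControl, 2.97 in siPSF, 8.80 in untransfected LTAD and 3.78 in LNCaP (-5.59). CCDC80, a secreted matrix protein, read 5.60, 5.22, 11.03 and 5.74 (-5.43), and COL5A2, a chain of fibrillar collagen V, 5.49, 5.24, 8.48 and 5.49 (-2.98). For these 3 untransfected LTAD alone was over the filter level, and the parent line gave readings like those of the transfected cultures. GPC6, a glypican, followed them at 6.55, 5.73, 8.33 and 5.83 (-1.78), and COL4A5 of basement membranes differed by -1.25. FN1, fibronectin, was just past the cutoff at 11.69, 11.17, 12.70 and 12.54 (2.01-fold lower), and THBS1, thrombospondin, just inside it at 9.24, 9.20, 10.23 and 9.75 (1.99-fold). SRPX, a sushi-repeat protein, was 3.71-fold higher, at 9.66, 9.55, 7.77 and 6.97, and LTBP1, which stores TGF-beta in the matrix, differed by 1.27. MMP16, a membrane-bound matrix protease, read 4.31, 4.29, 8.32 and 9.86, so that here both untransfected arrays were high, and its second probe set differed by -4.44. PRSS1, trypsinogen, differed by 3.45. Of 29 measured collagens 10 were kept and 2 of them were lower by 2-fold or more, and of 49 glycoproteins and proteoglycans 18 were kept with 4 lower and 2 higher, beside 4.4% lower and 6.37% higher over all kept genes. Of 41 proteases and inhibitors 15 were kept with 2 lower and 1 higher, and 0 of the 9 kept of 21 integrins and adhesion receptors were past 2-fold. The medians over every measured member were -0.04, 0.01, 0.01 and 0.19 in that order. Over the 8, 12, 13 and 9 members whose mean of 4 arrays reached the filter they were -0.07, -0.35, -0.18 and -0.18. The sign of the last 3 turned. Relative to all genes only the integrins and adhesion receptors turned, from 0.12 to -0.24.

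Other lists bear on culture and handling. Cholesterol synthesis genes had a median of 0.61 over 17 measured members, with SQLE, HMGCS1 and EBP 2.64-fold, 2.55-fold and 2.34-fold higher. SQLE read 10.78 in siControl, 10.02 in siPSF, 9.38 in untransfected LTAD and 9.44 in LNCaP, and relative to all genes the list median was 0.17 with siPSF in place of siControl, against 0.54. STARD4, which moves cholesterol between membranes, was at -1.04. Of 28 measured interferon-induced genes, which respond to double-stranded RNA, 8 were kept and 1 was past 2-fold, RIGI, a sensor of such RNA, at 7.82, 8.31, 6.55 and 6.98 (1.27). IFIH1, another sensor of double-stranded RNA, differed by 1.63, IFIT1 by 1.41 and OASL by 1.08, with both LTAD arrays under the filter for each, and these 3 were named after their values were seen. The list median was 0.16 over every measured member and -0.01 over the 9 whose mean of 4 arrays reached the filter. For siPSF minus untransfected LTAD, which shares the untransfected array, it was 0.54. Among 21 measured p53 targets, FAS, TNFRSF10B and GDF15 were past 2-fold on the higher side, the median was 0.17 and MDM2 differed by -0.04. For hypoxia and glycolysis the median was 0.06 over 23 genes, with PFKP, a phosphofructokinase, 2.74-fold higher, and for autophagy and lysosome genes -0.14 over 19 with 0 past 2-fold (0.027 relative to all genes on the deposited scale). Of the 12 reference genes 0 were past 2-fold, their median was 0.03 and GAPDH differed by -0.09. SFPQ, the target of siPSF, read 11.23, 9.87, 10.82 and 10.83 and was lowest with siPSF.

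The luminal markers of the prostate matched the label of the line in both cultures. Of 13 measured, 12 reached 7.23 in siControl and 12 in untransfected LTAD, and KLK3 alone was past 2-fold. KRT8 and KRT18, the keratins of luminal cells, read 11.84 against 12.49 and 11.31 against 12.09, and CDH1, E-cadherin, 12.05 against 12.00. LUM is also a marker of fibroblasts. Of 16 measured stromal markers 2 reached the filter level in siControl (COL1A1 and VIM) and 2 in untransfected LTAD (COL1A1 and LUM), and their summed linear level was 1555 and 1517. DCN, POSTN, FAP and PDGFRA read between 3.48 and 4.64 in both, under the mark set by olfactory receptor genes, and 9 of the 16 in siControl and 7 in untransfected LTAD were under that mark. ACTA2, smooth muscle actin, read 7.15 against 6.26, COL1A2 6.36 against 6.02 and COL3A1 6.71 against 6.76, all over the mark in both. VIM was higher in siControl, at 9.03 against 7.15. The part of stromal cells in the differences of matrix genes was not tested. Of 9 endothelial markers 0 reached the filter level and of 11 immune markers 1, CD68, did in both. Of 12 measured neuroendocrine markers 4 were kept, with 1 higher and 1 lower past 2-fold and a list median of 0.04. PEG10, a retroelement-derived gene on that list, read 8.49, 8.30, 5.01 and 4.98 (3.48). The other kept members, DDC, ENO2 and INSM1, differed by -1.69, -0.62 and 0.01. CHGA and SYP were under the filter in both LTAD arrays.

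RNA classes outside these pathways also differed between the arrays. Small nucleolar and Cajal body RNA genes had a median of -0.30 over 192, and of 103 kept 29 were at least 2-fold lower and 2 higher. SNORA36C read 4.54 in siControl, 4.51 in siPSF, 9.21 in untransfected LTAD and 5.99 in LNCaP, and SNORA20 6.59, 5.62, 10.18 and 9.87. Replication-dependent histone genes had a median of 0.30 over 57, with 9 higher and 4 lower among 30 kept. By genomic span, the longest 1968 of the kept genes, from 86.9 to 2060 kb, held 7.83% lower and 6.15% higher. The 1967 genes of middling span, from 20.6 to 40.5 kb, held 2.39% lower and 7.12% higher. The shortest 1968, up to 8.67 kb, held 5.03% lower and 5.64% higher, so the share lower did not rise steadily with span. These shifts lie between the same 2 arrays as the pathway differences above, and their part in those was not tested.

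Some of the differing genes lay side by side. In 14 places at least 3 kept neighbours were past 2-fold in 1 direction, 8 higher and 6 lower, with 48 of 9693 placed genes. The most extended was on chromosome 19, where the zinc finger genes ZNF676, ZNF729, ZNF492, ZNF730 and ZNF724 were all higher. ZNF729 read 8.63 in siControl, 8.22 in siPSF, 4.11 in untransfected LTAD and 6.32 in LNCaP (4.52), and ZNF676 10.18, 9.84, 7.27 and 9.01 (7.48-fold). Of 162 kept ZNF genes of chromosome 19, 15 were higher and 1 lower, beside 6.37% higher and 4.4% lower over all kept genes. Their median was 0.23 over 237, against 0.07 over all genes. This group was formed after the values were seen and includes the run above. BNC2 lay between PSIP1 (1.48) and CNTLN (3.24) on chromosome 9, and CNTLN encodes a protein of the centrosome linker. On chromosome 5, PCDHB16, PCDHB10, PCDHB11 and PCDHB13, cadherins of the protocadherin beta cluster, were all higher, the last 3 by 2.05, 1.26 and 1.06. IGFBP2 and IGFBP5 lay beside TNS1 (1.37), a focal adhesion protein, on chromosome 2. On the lower side, NFKB1, a subunit of NF-kappa B, SLC39A8, a zinc transporter, and BANK1, a B cell adaptor, differed by -1.60, -1.70 and -3.33 on chromosome 4. Runs of 4 genes lay on chromosome 1 with TOR1AIP1 (-1.47), a protein of the nuclear envelope, and with DEGS1 (-1.83), the ceramide desaturase. ZNF, PCDHB and AKR1C genes are families of close copies in which array probes can be shared, so their separate values are uncertain.

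**Figure D5:**
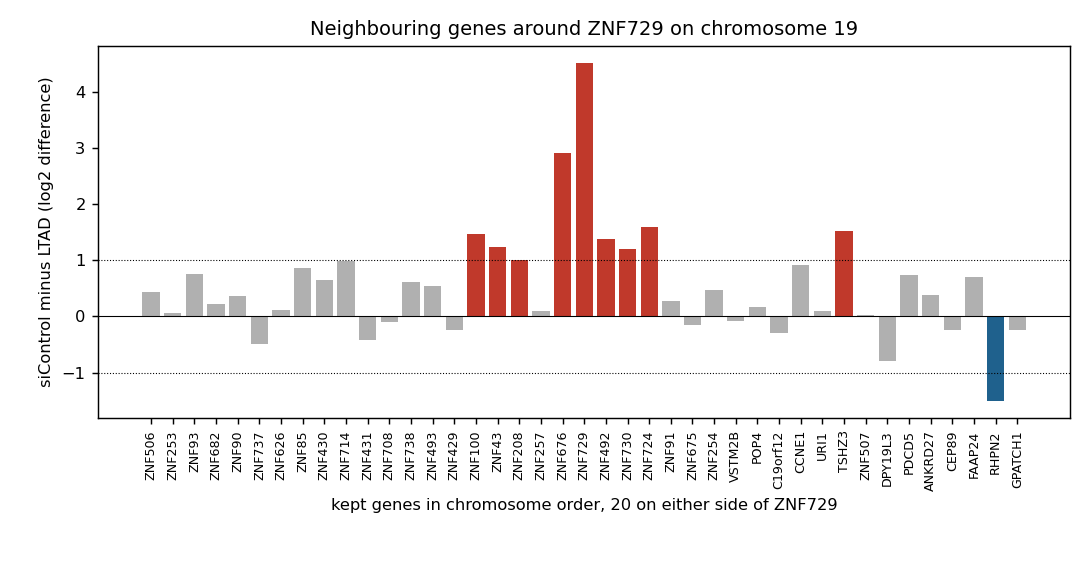
Difference of kept genes in chromosome order around ZNF729 on chromosome 19 (vertical, log2, siControl minus untransfected LTAD), 1 bar a gene, with dotted lines at 2-fold. Red bars are at least 2-fold higher and blue bars at least 2-fold lower, and ZNF676 to ZNF724 form an unbroken run of 5 red bars.

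The LNCaP array, which entered the comparison only through the shared normalization and the choice of 1 probe set a gene, gave a further reading of each gene. Over all kept genes LNCaP lay nearer to siControl LTAD in 45.3%, among the 627 higher in 49.3% and among the 433 lower in 43.6%. For the genes past 2-fold, it lay nearer to siControl in 42 of 45 of mitosis, 19 of 20 of replication that were higher, 5 of 5 of G1 to S, 7 of 10 of the stress response and 5 of 8 of the ID and SMAD list. It lay nearer to untransfected LTAD in all 9 of the androgen-induced genes that were lower, in all 3 of the IGF axis and in 16 of the 20 highest genes. The mitosis list had a median of 0.16 for siControl LTAD minus LNCaP and of -1.29 for untransfected LTAD minus LNCaP, and the androgen-induced list of -0.82 and -0.17. These comparisons share arrays with each other and with the one above. The siPSF array minus untransfected LTAD, which shares the untransfected array, had medians of 1.27 for mitosis, 0.87 for replication, 0.66 for the stress response, -0.65 for androgen-induced genes and -0.95 for the ID and SMAD list.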

How the data were processed

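Biotin-labelled total RNA was read on 4 Affymetrix whole-transcript arrays, 1 a group. The deposited unit was log2. Per the submitters' processing notes, the authors ran RMA, with Affymetrix Expression Console as the program. Not given in the sources used here: batches, versions, detection calls and the set of arrays put through RMA at once. Summaries by RMA combine the probes of a set, so sequences shared by close gene copies blur their values.

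Of 33297 probe sets, 19460 had 1 gene symbol, 1754 several and 12083 were unnamed here. Symbols were updated through Entrez IDs to RefSeq GRCh38.p14, which matched 19429 IDs. Where a gene had more than 1 probe set (769 genes), the brightest by its mean of 4 arrays stood for it, giving 18417 genes. The 4 columns were quantile-normalized and differences taken with Python 3.11.15, numpy 2.4.6 and pandas 2.3.3. Genes at or above the median gene level, 7.23, in at least 1 of the 2 arrays were kept (9845), and those at least 2-fold apart were counted. The counting step was tried on simulated data with a uniform shift between arrays, small noise and changes planted only in bright genes. The simulation did not model background or the spread between real cultures. With 1 array a group no test was run.

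The comparison, lists and rules were chosen with earlier results of these data known. Named genes were the 20 highest and 20 lowest kept genes, up to 5 members a list in each direction past 2-fold, ID1, TOP2A, AKR1C3 and SFPQ, without small RNA, olfactory receptor and several-symbol probe sets. Other members, the splits into MCM, GINS, ATF4 and chaperone genes, the ZNF and PCDHB groups and the CCAAT with CCACG element were chosen after their values were seen. The 33 lists held 787 genes, of which 732 were measured, and some genes are not reported here. Promoter windows came from RefSeq (GRCh38.p14). The 11 alternatives changed the scale, the arrays normalized together, the filter, the probe set rule or the transfected array.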

Additional observations from a re-analysis of the deposited data

How the results depend on the processing

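No paired analysis was possible because each group held 1 array, and leaving out an array was likewise not possible. The counts of 627 higher and 433 lower genes were 69 and 3858 on the deposited scale (1.76% higher, against 59.2%), 1223 and 285 with each array centred on its median (81.1% higher), and 311 and 263 with the filter at the 75th percentile, which kept 5251 genes. List medians, given relative to all genes, changed sign in 55 of the 327 combinations of list and alternative, over 18 of 33 lists. They changed sign in 0 of the 70 for mitosis, replication, ribosome biogenesis and MYC, androgen-induced, ID and SMAD, stress response and cholesterol genes. These 7 lists were singled out and lay from 0.54 to 1.47 away from 0. The alternatives also reuse the untransfected array, and most of them both arrays, so the lack of sign changes is no separate support. Of the 55, 51 were in lists within 0.2 of 0. Counting members whose mean of 4 arrays reached the filter, integrins (9 genes) went from 0.12 to -0.24 and steroid metabolism (8 genes) from 0.017 to -0.30. Stromal markers went from -0.03 to 0.82 and basal markers from -0.07 to 0.59. Only 2 stromal markers and 1 basal marker, ITGA6, were then counted, so these 2 values do not describe the whole lists. Androgen-repressed genes went from 0.0082 to -0.40 with siPSF. Of lists further from 0, the CDK inhibitors turned to 0.29 with the 75th percentile filter, autophagy and lysosome genes to 0.027 on both deposited scales and immune markers to 0.050 with siPSF in place of siControl. With siPSF, mitosis was at 1.21 (1.47), ribosome biogenesis and MYC at 0.38 (0.61), the ID and SMAD list at -1.01 (-1.23) and cholesterol synthesis at 0.17 (0.54), with the values for siControl in brackets. On the deposited scale, centred or not, ribosome biogenesis and MYC was at 0.83 and the stress response at 1.13 (0.77), and the stress response was at 0.98 with the 75th percentile filter. The ID and SMAD list was at -1.68 with that filter, at -1.58 with a filter on the mean of 4 arrays and at -1.45 with both arrays over the olfactory receptor mark. For the filters fewer members were counted; otherwise the cause was not tested. Filters leave a single gene's value as it is, so named genes were recomputed under the other settings. Of 627 such values, 1 changed sign, SFPQ, the target of siPSF, from 0.35 to -1.01 with siPSF, and 28 moved by over 0.5, of which 27 with siPSF. Readings under 7.23 limit the genes at the extremes, where signal over background is not known.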

Other observations

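Chromosomes differed in the balance of higher and lower genes. Counts are set against 6.37% higher and 4.4% lower over all kept genes. The median difference over kept genes was lowest on chromosome 1, at -0.18. There 34 of 982 kept genes were at least 2-fold higher and 60 lower in siControl LTAD. It was highest on chromosome 2, at 0.25, with 60 of 614 higher and 24 lower. Chromosome 8 had 44 of 342 higher and 11 lower, and chromosome 12 had 47 of 515 higher and 14 lower. Chromosome 17 had 39 of 605 higher, near the share over all kept genes, and 7 lower. On chromosome 4 the lower side was the longer one, with 23 of 328 higher and 35 lower. It was also the longer one on chromosomes 1, 3, 6, 7, 11 and 21.

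Runs of neighbours not yet described were few. On chromosome 11, LPXN, a focal adhesion protein, and the glycine acyltransferase genes GLYATL2 and GLYATL1 differed by -2.65, -3.02 and -1.23. On chromosome 17, PSMD12, a proteasome subunit, PITPNC1, a lipid transfer protein, and NOL11, which acts in ribosome biogenesis, differed by 1.34, 1.08 and 1.37. ZBTB39 and NEMP1, beside HSD17B6 on chromosome 12, differed by 1.13 and 1.67. QSOX1, a secreted sulfhydryl oxidase in the chromosome 1 run with TOR1AIP1, read 9.03 in siControl, 9.28 in siPSF, 11.84 in untransfected LTAD and 10.12 in LNCaP.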
